A study of Homo sapiens with 4 samples.

Results

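Aminoacyl-tRNA synthetases attach amino acids to their tRNAs, and 35 of their genes were followed by symbol, 19 of cytosolic enzymes (symbols ending in 1, FARSA and FARSB) and 16 of mitochondrial enzymes (symbols ending in 2). The deposited table held all 35 among its 38972 genes. RNA was sequenced from HEK293T cells, an established human embryonic kidney line that carries the SV40 large T antigen, in 4 libraries, 2 of them labelled as overexpressing the Flag epitope tag alone and 2 as overexpressing RNase H1, a nuclease that degrades RNA paired with DNA. Neither the vector nor the duration of overexpression is known from the labels, nor whether replicates came from separate cultures, so p-values measure only the spread between these libraries, which may be technical. Values are TPM, a normalised transcript abundance, which correct for transcript length and give each library the same total. They keep no sequencing depth, and more RNA per cell cannot be told from more cells that express a gene.

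Each enzyme recognises its amino acid and its tRNAs, and joins them at the expense of ATP. Separate nuclear genes encode most of the cytosolic and mitochondrial enzymes, while GARS1 and KARS1 supply glycyl- and lysyl-tRNA synthetase to both compartments. Several cytosolic enzymes sit in the multisynthetase complex on the scaffolds AIMP1, AIMP2 and EEF1E1. Many cytosolic synthetase genes are known targets of ATF4, the transcription factor of the amino acid response, and uncharged tRNA is the signal that starts this response through the kinase GCN2, encoded by EIF2AK4.

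RNASEH1 itself was no more abundant under the RNase H1 label, at 32.09 and 32.8 TPM under the Flag label and 29.93 and 29.67 TPM under the RNase H1 label (log2 fold change -0.12 ± 0.06, SE, limma adjusted p = 0.26). Groups are therefore called by their labels, and every change is given as RNase H1 label minus Flag label. All 7 markers expected of HEK293T were above 1 TPM on average, summing to between 1201 and 1221 TPM under the Flag label and between 1154 and 1178 TPM under the RNase H1 label. Within that list VIM was called higher, and IRS4, NEFL and NEFM lower. Their part in the results below was not tested. Summed markers stayed between 3.85 and 5.78 TPM for carcinoma epithelium (2 of 6 above 1 TPM, KRT7 listed at 0 in all libraries) and between 14.92 and 19.28 TPM for fibroblasts (1 of 4, COL1A1). Neither of those lists had a called gene by limma. Log2 values correlated at 0.99 within each group and at 0.98 across groups over 15651 genes.

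Promoter sequence is shown for 4 called members and for IARS1, HARS1 and HARS2, which were not called, because a short motif recurred in synthetase promoters. RefSeq windows on GRCh38.p14, 250 bases before the start, matched 30 of the 35 genes, and LARS1, VARS1, YARS1, AARS2 and VARS2 had no entry. The letters CCGGAA, the core bound by ETS factors, were searched on both strands after the sequences had been read, together with the ATF4 element TGATGNAA and the E-box CACGTG that MYC binds. CCGGAA or its complement stood in 10 of 16 cytosolic and 7 of 14 mitochondrial windows, which is 56.7% of the 30, against 17.9% of 22198 promoters of protein-coding genes and 14.5% of all 35116 windows. The windows of HARS1 and HARS2 overlap, and the same 3 matches between their starts are counted once in each class. Only the first window listed was kept for each member, while the shares over promoters count every window, so they are not strictly alike. The windows of CARS2 (no CCGGAA, ending at 110706765) and MARS1 (with CCGGAA, starting at 57487818) lie well inside their genes. In GENCODE release 29 these genes start at 110713603 and 57475445. TGATGNAA stood in 3 of the 30 member windows (AARS1, IARS1 and YARS2) against 2.35% of the protein-coding ones, and CACGTG in 3 (IARS1, EARS2 and MARS2) against 7.37%. A match is a description of letters and not a bound site. The median GC content of the windows was 61.4% in the cytosolic and 61.2% in the mitochondrial class, beside 62.0% over protein-coding genes.

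The windows of CARS1 (chr11:3057424-3057673, minus strand), FARSA (chr19:12933712-12933961, minus strand), IARS1 (chr9:92293698-92293947, minus strand) and IARS2 (chr1:220093882-220094131, plus strand) are written 5′ to 3′ on the gene's strand. For RARS2 with its divergent neighbour ORC3 (chr6:87589988-87590134) and for HARS1 with HARS2 (chr5:140691371-140691454), only the bases between the 2 RefSeq starts are given, on the plus strand. Capitals mark CCGGAA, TGATGNAA and CACGTG, read on either strand.
CARS1: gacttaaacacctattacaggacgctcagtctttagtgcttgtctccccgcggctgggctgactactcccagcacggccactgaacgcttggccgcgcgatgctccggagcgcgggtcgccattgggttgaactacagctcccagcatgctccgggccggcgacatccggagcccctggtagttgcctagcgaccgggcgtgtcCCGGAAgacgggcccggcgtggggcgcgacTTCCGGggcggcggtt
FARSA: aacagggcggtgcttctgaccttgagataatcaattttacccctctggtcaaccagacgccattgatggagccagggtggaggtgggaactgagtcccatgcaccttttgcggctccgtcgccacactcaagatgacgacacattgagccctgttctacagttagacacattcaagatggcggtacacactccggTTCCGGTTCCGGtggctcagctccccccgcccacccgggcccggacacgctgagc
IARS1: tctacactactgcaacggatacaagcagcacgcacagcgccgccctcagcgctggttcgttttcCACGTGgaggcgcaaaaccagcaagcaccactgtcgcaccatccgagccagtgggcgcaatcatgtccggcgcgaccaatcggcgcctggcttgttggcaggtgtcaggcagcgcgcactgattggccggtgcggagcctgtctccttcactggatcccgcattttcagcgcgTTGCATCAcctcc
IARS2: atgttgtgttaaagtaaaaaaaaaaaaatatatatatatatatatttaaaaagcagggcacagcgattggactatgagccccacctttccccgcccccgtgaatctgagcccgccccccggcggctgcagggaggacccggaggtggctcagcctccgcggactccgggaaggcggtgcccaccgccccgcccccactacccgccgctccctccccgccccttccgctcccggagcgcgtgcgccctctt
RARS2 to ORC3: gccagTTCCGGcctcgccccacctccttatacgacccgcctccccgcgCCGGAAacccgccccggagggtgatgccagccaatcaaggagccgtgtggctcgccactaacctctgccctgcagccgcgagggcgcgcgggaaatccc
HARS1 to HARS2: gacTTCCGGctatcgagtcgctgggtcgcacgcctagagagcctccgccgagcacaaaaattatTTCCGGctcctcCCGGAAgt

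CARS1, FARSA and the RARS2 interval each held 2 matches to CCGGAA and the HARS1 to HARS2 interval 3, the window of IARS1 held the ATF4 element and the E-box, and that of IARS2 held none of the searched motifs. Of the 17 members with CCGGAA 10 had a log2 fold change above 0 and 7 below, with a median of 0.03 and 2 called higher and 1 lower. Of the 13 members without it 3 lay above 0 and 10 below, with a median of -0.14 and 1 called lower. These 2 sets were formed after the values were known, and their difference was not tested.

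Cytosolic enzymes were the more abundant class. Their mean over the 4 libraries ran from about 34 TPM for FARSB to about 275 TPM for TARS1, and the mitochondrial means from about 10 TPM for FARS2 to about 139 TPM for IARS2. Summed over the class, cytosolic synthetases took 2869 and 2840.2 TPM under the Flag label and 2825.6 and 2781.6 TPM under the RNase H1 label, a change of -1.79%. Mitochondrial synthetases took 580.7 and 594.1 TPM and then 558.8 and 525.4 TPM, a change of -7.71%. Their ratio was 4.94 and 4.78 under the Flag label and 5.06 and 5.29 under the RNase H1 label (4.86 ± 0.113 against 5.18 ± 0.168, SD, n = 2). The groups did not overlap in this ratio, which was not tested; an exact permutation test of 2 libraries against 2 cannot give a p below 0.333. IARS2 carried much of the difference. Without it, a sum added after the values were seen, the mitochondrial class took 432.5 and 441 TPM under the Flag label and 426 and 403 TPM under the RNase H1 label, a change of -5.1%. The ratio was then 6.633 and 6.44 against 6.632 and 6.903, and the groups overlapped.

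**Figure D1:**
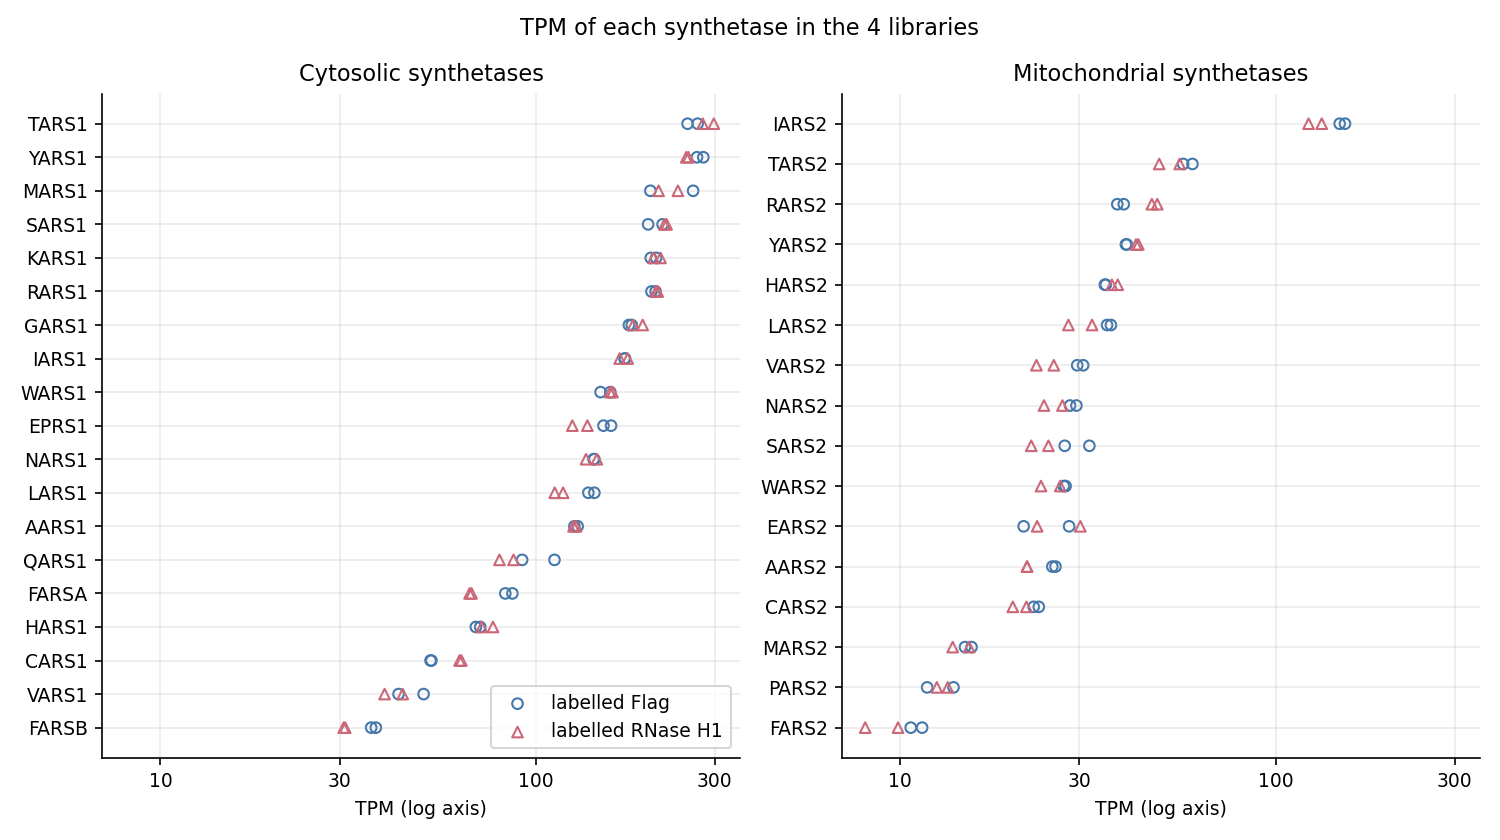
TPM (log axis) of each of the 19 cytosolic (left) and 16 mitochondrial (right) synthetases, ordered by mean, with 1 symbol for each library, circles for Flag and triangles for RNase H1. Most cytosolic genes lie above 100 TPM. The mitochondrial ones average below 60 TPM except IARS2, and TARS2 reaches 60.04 TPM in Flag replicate 2.

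All 35 members passed the filter of a mean of at least 1 TPM and entered the fit over 15651 genes (limma on log2(TPM + 1), Benjamini-Hochberg adjustment over all of them). Changes were small, from -0.33 for FARSA to 0.29 for RARS2 on the log2 scale. CARS1 and RARS2 were called higher and FARSA, LARS1 and IARS2 lower at an adjusted p under 0.05. That makes 14.3% of the members, beside 11.8% of all tested genes (6.3% higher and 5.54% lower), so the share called was near the background. Among the 8837 genes within the members' range of mean TPM, 8.67% were higher and 7.4% lower. Of the 19 cytosolic genes 1 was higher, 2 lower and 16 not called, and of the 16 mitochondrial genes 1 was higher, 1 lower and 14 not called.

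The median change of each class is read beside that of all tested genes. Mitochondrial genes had a median log2 fold change of -0.15 with 11 of 16 below 0, and cytosolic genes a median of -0.01 with 11 of 19 below 0, while the median over all tested genes was 0.00. Both RNase H1 libraries lay below both Flag libraries in 10 of 16 mitochondrial and 6 of 19 cytosolic genes, and above them in 3 and 6. Over all tested genes the groups did not overlap in 60.7%, 29.4% lower and 31.3% higher. The difference between the classes was not tested. Without RNase H1 replicate 2 the mitochondrial median was -0.08 and the cytosolic median 0.02.

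**Figure D2:**
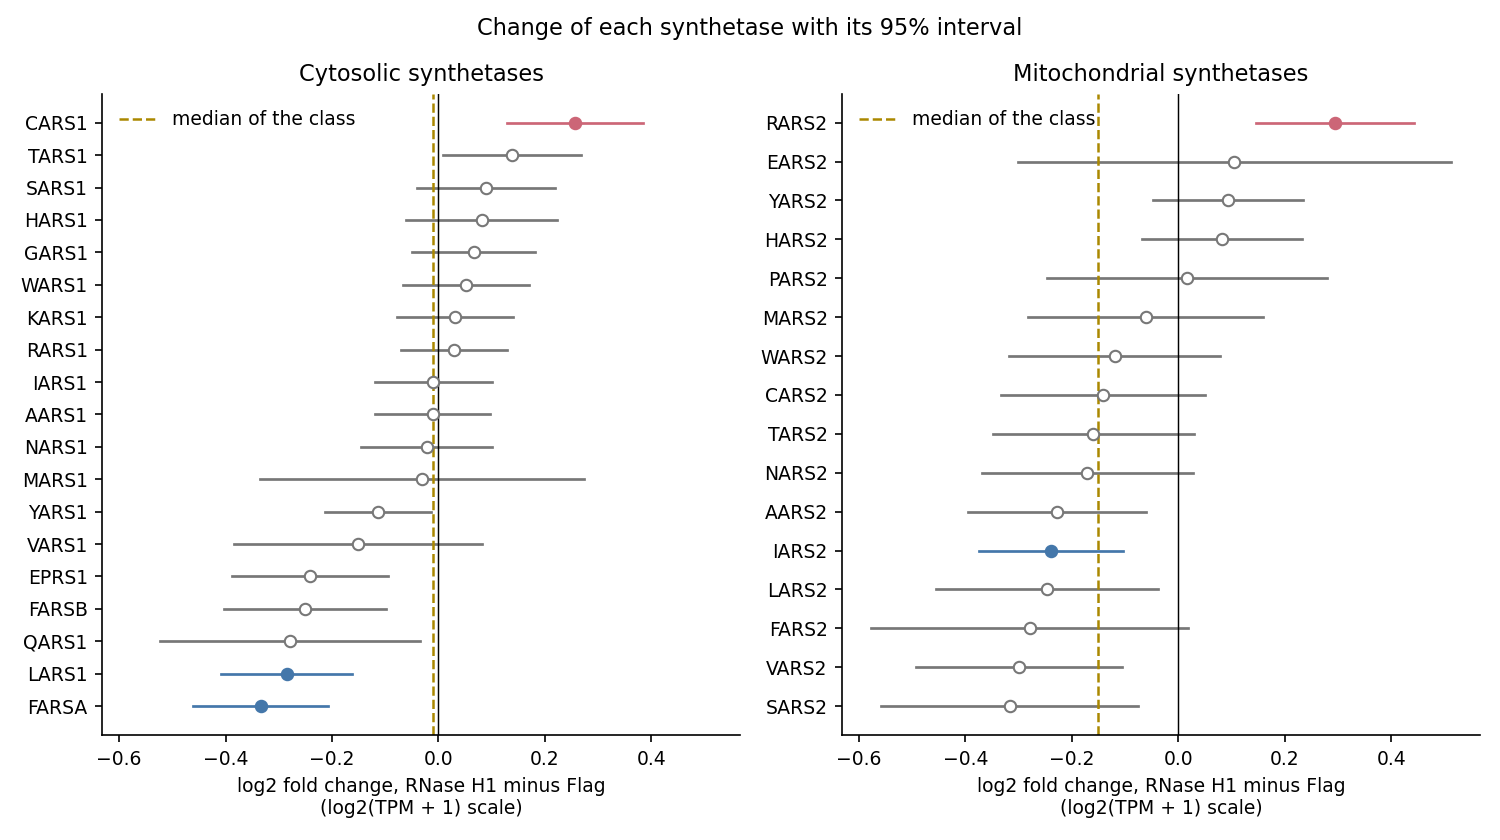
Log2 fold change (RNase H1 minus Flag, on the log2(TPM + 1) scale) of each synthetase with its 95% limma interval, filled where called at an adjusted p under 0.05, red for higher and blue for lower, and the class median as a dashed line. The mitochondrial median is -0.15 and the cytosolic median -0.01, and 5 of the 35 points are filled.

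Among the cytosolic enzymes phenylalanyl-tRNA synthetase is built of alpha and beta subunits from separate genes. FARSA, the alpha subunit (chromosome 19, 12922479 to 12934037, minus strand, GENCODE release 29), stood at 82.98 and 86.67 TPM under the Flag label and at 66.65 and 67.45 TPM under the RNase H1 label. The groups were well apart, and FARSA fell by 0.33 ± 0.05 on the log2 scale (SE, limma adjusted p = 0.0204). With GC correction its change was -0.26 and that of LARS1 -0.34, so the order of the decreases depends on that setting. FARSB, the beta subunit (chromosome 2, 222570536 to 222656337, minus strand), was listed at 36.44 and 37.49 TPM and then at 30.78 and 31.07 TPM. Its groups did not overlap either, but its change of -0.25 ± 0.06 missed the threshold (limma adjusted p = 0.0536), which it passed in 4 of 15 alternative fits. FARSA was the more abundant subunit gene in all 4 libraries.

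LARS1, leucyl-tRNA synthetase, also known as a leucine sensor of the mTORC1 pathway (chromosome 5, 146113038 to 146182660, minus strand), stood at 138.13 and 143.31 TPM under the Flag label and at 118.28 and 112.38 TPM under the RNase H1 label. It fell by 0.29 ± 0.05 on the log2 scale (limma adjusted p = 0.0262), with no overlap between groups. CARS1, cysteinyl-tRNA synthetase (chromosome 11, 3000922 to 3057613, minus strand), moved the other way, from 52.44 and 52.74 TPM to 62.67 and 63.37 TPM. Replicates agreed closely in both groups, and CARS1 rose by 0.26 ± 0.05 (limma adjusted p = 0.0363).

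Of the cytosolic genes that were not called, EPRS1 came closest to the threshold. EPRS1, whose product charges both glutamate and proline, was listed at 151.54 and 158.77 TPM under the Flag label and at 137.3 and 125.2 TPM under the RNase H1 label (-0.24 ± 0.06, limma adjusted p = 0.053), and it passed in 7 of 15 alternatives. QARS1, glutaminyl-tRNA synthetase, had one of the larger differences, with 112.2 and 91.99 TPM before 80.06 and 87.26 TPM. Its replicates were far apart, and its change of -0.28 ± 0.10 was not called (limma adjusted p = 0.121). TARS1, threonyl-tRNA synthetase and the member with the highest mean, stood at 270.11 and 253.92 TPM and at 298.22 and 278.66 TPM (0.14 ± 0.05, limma adjusted p = 0.139). The remaining 12 cytosolic genes had changes between -0.15 for VARS1 and 0.09 for SARS1, and none was called.

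Several cytosolic genes had narrow intervals around 0. AARS1, alanyl-tRNA synthetase, changed by -0.01 with a 95% interval from -0.12 to 0.10, and IARS1, isoleucyl-tRNA synthetase, by -0.01 from -0.12 to 0.10. IARS1 stood at 173.05 and 172.45 TPM under the Flag label and at 175.86 and 167.42 TPM under the RNase H1 label, with overlapping groups. RARS1 (0.03, from -0.07 to 0.13) and the dual-compartment KARS1 (0.03, from -0.08 to 0.14) and GARS1 (0.07, from -0.05 to 0.18) were similar. WARS1, tryptophanyl-tRNA synthetase and an interferon-inducible gene, changed by 0.05 ± 0.05 (limma adjusted p = 0.513).

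Members of the multisynthetase complex were counted apart, a grouping made after the values were known. Of its 7 enzymes on the member list (EPRS1, IARS1, KARS1, LARS1, MARS1, QARS1 and RARS1) 1 was called lower, LARS1, and 6 were not called, with a median log2 fold change of -0.03. That is 14.3%, near the 11.8% of all tested genes. The other 12 cytosolic members had 1 higher, 1 lower and a median of 0.02. Among the scaffolds, AIMP2 stood at 74.48 and 74.1 TPM under the Flag label and at 64.49 and 60.69 TPM under the RNase H1 label and fell by 0.24 ± 0.06 (limma adjusted p = 0.0447). AIMP1 (-0.08 ± 0.06) and EEF1E1 (-0.14 ± 0.05) were not called. All 3 scaffolds had both RNase H1 libraries below both Flag libraries, as had 29.4% of all tested genes.

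Mitochondrial isoleucyl-tRNA synthetase was the most abundant enzyme of its class and the only one called lower. IARS2 (chromosome 1, 220094102 to 220148041, plus strand) stood at 148.16 and 153.1 TPM under the Flag label and at 132.73 and 122.43 TPM under the RNase H1 label. It fell by 0.24 ± 0.06 on the log2 scale (SE, limma adjusted p = 0.0459), and its groups did not overlap. RARS2, mitochondrial arginyl-tRNA synthetase (chromosome 6, 87514378 to 87590003, minus strand), was the other called mitochondrial gene. It was listed at 39.39 and 37.86 TPM and then at 46.8 and 48.38 TPM, a rise of 0.29 ± 0.06 (limma adjusted p = 0.0363). The RARS2 call was lost after correction for GC content (0.24, limma adjusted p = 0.0629), where CARS1 had the larger change (0.27). The GC content of its longest transcript was 41.9%, beside a median of 51.2% over the mitochondrial members.

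Most other mitochondrial genes lay below 0 without passing the test. SARS2, seryl-tRNA synthetase, stood at 31.9 and 27.42 TPM under the Flag label and at 22.33 and 24.81 TPM under the RNase H1 label (-0.32 ± 0.10, limma adjusted p = 0.0892). In the annotation 46.2% of its exon length is shared with another gene listed as protein-coding on the same strand, which leaves the SARS2 value uncertain. VARS2, valyl-tRNA synthetase, was listed at 29.6 and 30.7 TPM and at 25.64 and 23.05 TPM (-0.30 ± 0.08, limma adjusted p = 0.0618), with 22% of its exon length shared with GTF2H4. LARS2, the mitochondrial leucyl enzyme, stood at 35.56 and 36.41 TPM and at 32.43 and 28.05 TPM (-0.25 ± 0.09, limma adjusted p = 0.111). FARS2, a single-chain phenylalanyl enzyme, stood at 10.66 and 11.43 TPM and at 8.06 and 9.86 TPM (-0.28 ± 0.12, limma adjusted p = 0.181). In each of these 4 genes both RNase H1 libraries lay below both Flag libraries, as in 29.4% of all tested genes. SARS2 and VARS2 were named for the size of their change, and LARS2 and FARS2 as partners of called genes. For SARS2 and VARS2 that choice makes such an order likely in advance. The other 10 mitochondrial members ranged from -0.23 for AARS2 to 0.11 for EARS2. At an unadjusted p under 0.05, 5 mitochondrial genes were lower and 1 was higher, and 6 cytosolic genes were lower and 2 higher. Together these are 14 of 35 members, beside 31.3% of all tested genes.

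The 5 calls rested on all 4 libraries. In the 4 fits that left out 1 library each (Flag replicate 1 or 2, RNase H1 replicate 1 or 2) none of the 5 was called by limma. Adjusted p ran from 0.0988 to 0.215, all 5 kept their direction, and FARSA ranged from -0.37 to -0.30, LARS1 from -0.32 to -0.25, IARS2 from -0.30 to -0.18, CARS1 from 0.25 to 0.26 and RARS2 from 0.27 to 0.32. The calls were also lost with no filter on low values and when variances were moderated without an intensity trend. Over all genes, the fits without 1 library called at most 10 higher and 5 lower, which bears on every other call named here.

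Replicates lay close together for most synthetases. On the log2(TPM + 1) scale, a gap of more than 1.2-fold between replicates of either group was seen in 2 of 19 cytosolic members (MARS1 and QARS1) and 1 of 16 mitochondrial ones (EARS2), and in 28% of all tested genes. FARS2, at 8.06 and 9.86 TPM under the RNase H1 label, lay just under that limit on this scale and would pass it on TPM. The 28% covers genes down to a mean of 1 TPM, while every member averaged about 10 TPM or more. No such share was computed for genes at the members' level, so close replicates cannot be read as particular to synthetases. MARS1, methionyl-tRNA synthetase, had the widest cytosolic gap, with 262.69 and 202.11 TPM under the Flag label and 212.56 and 239.28 TPM under the RNase H1 label. The groups overlapped, and the 95% interval of its change of -0.03 ran from -0.34 to 0.27. On the annotation, MARS1 shares 355 exon bases with DDIT3 on the opposite strand, and whether counting used strand is unknown here. DDIT3, an ATF4 target, rose by 0.78 ± 0.07 (limma adjusted p = 0.00714). EARS2, the mitochondrial glutamyl enzyme, stood at 21.31 and 28.17 TPM and at 30.17 and 23.15 TPM, with no order between the groups.

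For each amino acid with an enzyme of its own in both compartments, the ratio of cytosolic to mitochondrial TPM was taken within each library. The 17 ratios (EPRS1 set against both EARS2 and PARS2, and FARS2 against both FARSA and FARSB) were all above 1 in every library, from 1.13 for IARS1 to IARS2 up to 17.7 for MARS1 to MARS2. Groups did not overlap in 11 ratios, of which 7 were higher and 4 lower under the RNase H1 label, and they overlapped in 6. Groups of single genes did not overlap in 60.7% of all tested genes, a similar share, and no ratio was tested. The CARS1 to CARS2 ratio went from 2.24 and 2.33 to 3.14 and 2.92, where CARS1 rose and CARS2 stood at 23.39 and 22.67 TPM and then at 19.94 and 21.68 TPM (-0.14 ± 0.08). The ratio of IARS1 to IARS2 went from 1.17 and 1.13 to 1.32 and 1.37, where the mitochondrial enzyme fell. For arginine the ratio was lower, with RARS1 to RARS2 at 5.17 and 5.51 and then at 4.47 and 4.37. RARS1 itself stood at 203.45 and 208.65 TPM and at 209.09 and 211.39 TPM.

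In some pairs both enzymes had similar changes. LARS1 and LARS2 had log2 fold changes of -0.29 and -0.25, and their ratio stayed between 3.65 and 4.01 in all libraries. FARSA and FARS2 had -0.33 and -0.28, with ratios from 6.84 to 8.27. Closest of all were HARS1 and HARS2, the histidyl enzymes, at 0.08 ± 0.06 each, with ratios of 1.97, 2.02, 2.03 and 1.96. HARS1 stood at 69.26 and 71.15 TPM and at 76.94 and 71.75 TPM, and HARS2 at 35.07 and 35.28 TPM and at 37.96 and 36.62 TPM, and neither was called. In RefSeq 84 bases, given above, lie between their starts on opposite strands of chromosome 5, and in the annotation used for overlaps they share 437 exon bases. Reads from that overlap cannot be told apart without strand.

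**Figure D3:**
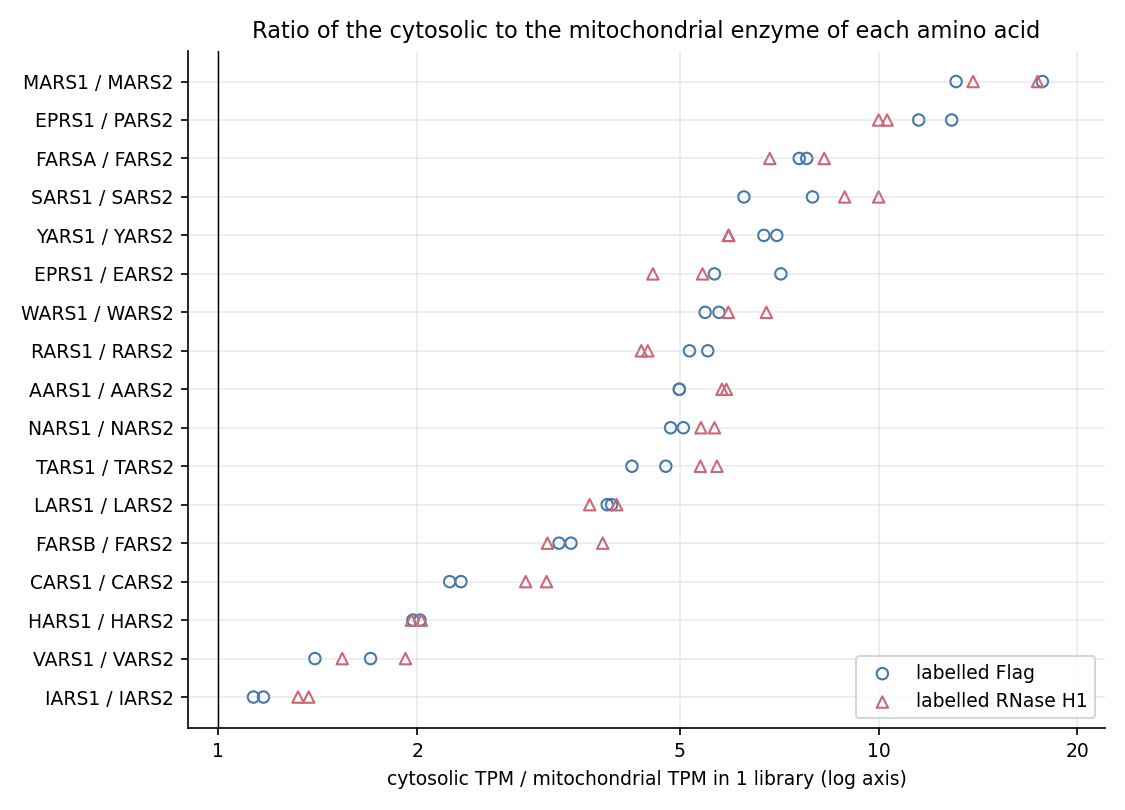
Ratio of the TPM of the cytosolic enzyme to that of its mitochondrial partner within each library (log axis), circles for Flag and triangles for RNase H1, ordered by the mean in Flag. HARS1 to HARS2 stays between 1.96 and 2.03 in all 4 libraries, and CARS1 to CARS2 moves from 2.24 and 2.33 to 3.14 and 2.92.

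Some synthetase genes start close to a coding gene on the opposite strand. A protein-coding gene on the opposite strand started within 1000 bases of 4 of 19 cytosolic and 6 of 16 mitochondrial members (HARS1 and HARS2 counted once each), against 13.0% of 19940 protein-coding genes of GENCODE release 29. Values of synthetase and neighbour are set side by side, and no difference within a pair was tested. RARS2 rose while ORC3, an origin recognition subunit, stood at 49.96 and 47.24 TPM and at 52.99 and 47.36 TPM (0.04 ± 0.08, limma adjusted p = 0.732). LYRM4, beside FARS2, encodes a protein of iron-sulfur cluster assembly. It stood at 38.47 and 41.89 TPM and at 28.56 and 27.15 TPM and fell by 0.51 ± 0.07 (limma adjusted p = 0.0171). TERF2IP, a telomere protein beside KARS1, rose by 0.34 ± 0.06 (limma adjusted p = 0.0246), from 61.85 and 58.97 TPM to 78.87 and 74.63 TPM, while KARS1 stood at 202.56 and 209.29 TPM and at 215.1 and 205.96 TPM. These 2 genes share 176 exon bases on opposite strands. The neighbours DDX19B, WDR25, ING1, UBFD1 and MRPS12 were not called, with log2 fold changes from -0.12 for MRPS12 to 0.45 for ING1.

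**Figure D4:**
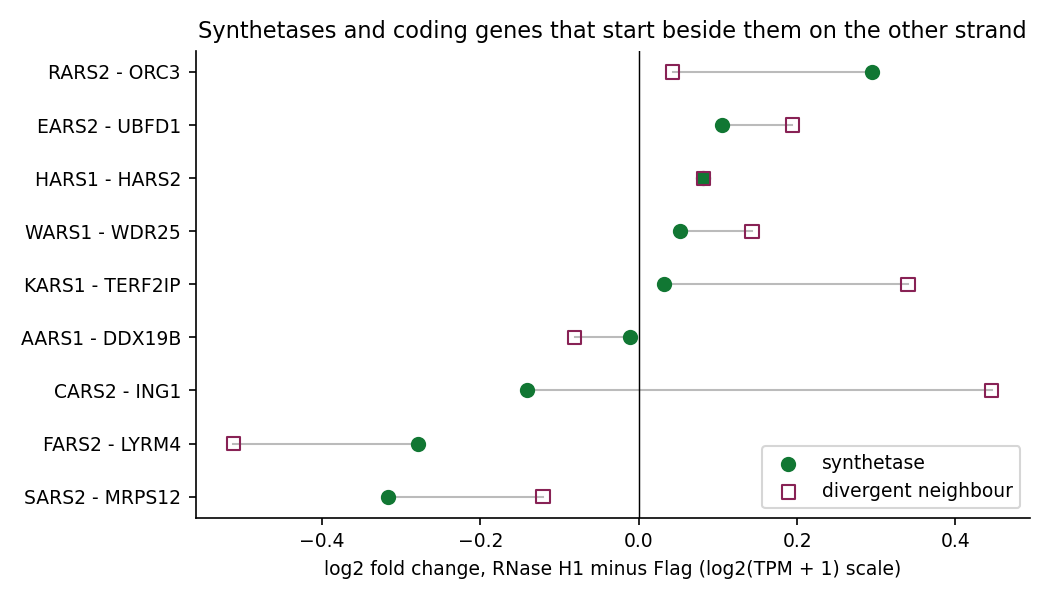
Log2 fold change (RNase H1 minus Flag, log2(TPM + 1) scale) of each synthetase (filled circle) and of the coding gene that starts within 1000 bases of it on the opposite strand (open square). HARS1 and HARS2 coincide at 0.08, and KARS1 (0.03) and TERF2IP (0.34) lie apart.

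The factors that take charged tRNA to the ribosome had no calls by limma, beside 11.8% of all tested genes. Lists of 5 and 8 genes are too short to tell no calls from that share. Of 5 cytosolic elongation factor genes none was called, with 1 higher and 1 lower at an unadjusted p under 0.05 and a median log2 fold change of -0.01. EEF2, the translocase, was nearest at 0.12 ± 0.03 (limma adjusted p = 0.0503), and EEF1A1, which has many near-identical copies in the genome and an uncertain value, was at -0.07 ± 0.03. Of 8 genes for mitochondrial glutaminyl-tRNA formation, formylation and elongation none was called by limma, with 1 lower at an unadjusted p under 0.05. TUFM, the mitochondrial elongation factor Tu, was at -0.18 ± 0.05 (limma adjusted p = 0.0575).

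Selenocysteine is made on a tRNA that SARS1 first charges with serine. SARS1 stood at 199.35 and 217.81 TPM under the Flag label and at 223.24 and 220.31 TPM under the RNase H1 label (0.09 ± 0.05, limma adjusted p = 0.308). PSTK, the kinase that acts next on this tRNA, rose from 13.65 and 14.19 TPM to 20.71 and 22.36 TPM (0.59 ± 0.08, limma adjusted p = 0.0165). SEPSECS, EEFSEC and SECISBP2, the other 3 of the 4 genes on that list, were not called.

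Sensors of uncharged tRNA and targets of ATF4 were read beside the synthetases. GCN1, which activates GCN2, fell by 0.26 ± 0.06 (limma adjusted p = 0.048), from 54.18 and 57.79 TPM to 46.9 and 46.59 TPM. EIF2AK4 (-0.09 ± 0.07) and IMPACT, an inhibitor of GCN2 activation (-0.27 ± 0.07, limma adjusted p = 0.0589), were not called. ATF4 itself stood at 667.88 and 699.04 TPM and at 672.3 and 683.55 TPM (-0.01 ± 0.04, limma adjusted p = 0.864). On its list of 7 genes, limma called 2 higher and 1 lower and left 4 uncalled. That is 42.9% called, beside 11.8% of all tested genes, on a short list that was not tested. Log2 fold changes lay above 0 in 5 of the 7 genes and below in 2. Among those left uncalled, TRIB3 was at 0.386 ± 0.107 (limma adjusted p = 0.0687) and CHAC1 at 0.142 ± 0.155. SESN2, a repressor of mTORC1, rose by 0.39 ± 0.06 (limma adjusted p = 0.0204) along with DDIT3, and PSAT1, of serine synthesis, fell by 0.32 ± 0.05 (limma adjusted p = 0.0175). ASNS, asparagine synthetase, stood at 112.29 and 120.65 TPM and at 138.27 and 123.45 TPM (0.17 ± 0.07, limma adjusted p = 0.171). The synthetase genes with the ATF4 element in their window, AARS1, IARS1 and YARS2, had log2 fold changes of -0.01, -0.01 and 0.09, and none was called.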

How the data were processed

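HEK293T RNA was sequenced, with 2 libraries for each label (Flag, RNase H1). The authors deposited 1 table of TPM, with a column for each library, and its columns sum to between 998901 and 998955. Per the submitters' processing notes, STAR and hg38 were used. Neither labels nor file state versions, quantifier, annotation or strand setting. TPM hides depth, so counting error could not be estimated and depth is unknown.

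Genes averaging 1 TPM or more over the libraries were taken as log2(TPM + 1) and compared with limma 3.58.1 in R 4.3.3 (group term, variances moderated along an intensity trend, two-sided), with Benjamini-Hochberg adjustment over 15651 genes and a threshold of 0.05. Fold changes on this scale understate those of low genes. Errors of fold changes are standard errors. The procedure was tested on simulated data. Members and lists were chosen with earlier results of these data known, so no list was tested. Library values are given for called members, for the 3 largest changes in each class and for partners of called members by rule, and further genes were named after their values were seen. Lists, described by counts, were scaffolds, cytosolic elongation, mitochondrial charging and elongation, selenocysteine, uncharged tRNA sensing, and ATF4 with targets. Some further lists are not reported here.

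Gene models came from GENCODE release 29 (GRCh38) and promoter sequences from RefSeq (GRCh38.p14). Alternatives were pseudocounts of 0.1 and 5, no filter, a minimum of 5 TPM, quantile and median-of-ratios scaling, variances without trend or robust, the replicate number as a block, GC correction (splines with 4 degrees of freedom) and leaving out each library. Correction for GC, exon length and gene span was chosen after seeing the data. Plots used matplotlib 3.10.9 (Python 3.11.15).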

Additional observations from a re-analysis of the deposited data

How the results depend on the processing

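The reported values were recomputed under 14 other settings and 1 more chosen after seeing the data. With no filter on low values limma called 0 genes higher and 0 lower, 0 cytosolic and 0 mitochondrial synthetases among them, while 3116 and 2539 genes had an unadjusted p under 0.05. With no intensity trend it called 1 gene higher and 0 lower, and again 0 cytosolic and 0 mitochondrial members, while 2222 and 2115 genes had an unadjusted p under 0.05. Without 1 library in turn, where the lone library of its group is assumed to vary like the other group, calls over all genes were 0 to 10 higher and 0 to 5 lower, members called in either class were 0 to 0, the cytosolic median ran from -0.022 to 0.021 and the mitochondrial median from -0.175 to -0.081 (both upper values without RNase H1 replicate 2). The number of cytosolic members called lower was 4 with a minimum mean of 5 TPM, with median-of-ratios scaling, with GC correction and with GC, exon length and gene span correction. EPRS1 and FARSB were the members added in all 4. Mitochondrial members called lower were 2 with a minimum mean of 5 TPM, where VARS2 was added. Mitochondrial members called higher were 0 under both composition corrections, where RARS2 had an adjusted p of 0.0629 and 0.0822. The cytosolic median was -0.038 with quantile normalization, -0.03 with GC correction and -0.045 with GC, exon length and gene span correction. The cause of these shifts was not tested.

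No member that was called changed direction in any of the 15 alternatives. Uncalled members near 0 did. AARS1 was at 0.01 with GC correction, RARS1 at -0.03 with GC correction and -0.083 with GC, exon length and gene span correction, and KARS1 at -0.036 with the latter. Without 1 library in turn, AARS1 ran from -0.026 to 0.003, IARS1 from -0.045 to 0.026, MARS1 from -0.219 to 0.157, NARS1 from -0.07 to 0.026, EARS2 from -0.088 to 0.298, MARS2 from -0.129 to 0.007 and PARS2 from -0.092 to 0.124.

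The labels do not say that equal replicate numbers mark a shared culture or day. Over all tested genes the differences between replicates 1 and 2 of the groups correlated at 0.03. With the replicate number as a block, 1244 genes were higher and 1198 lower, cytosolic members were 1 higher and 3 lower (EPRS1 added, adjusted p = 0.0402), and mitochondrial members 1 higher and 1 lower. Only 2 libraries a group and an unknown depth limit what could be detected.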
